A study of Mus musculus with 14 samples.

Results

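The genes described here encode albumin and other carrier proteins that hepatocytes secrete into plasma. All 10 genes on the list (Alb, Ttr, Rbp4, Trf, Gc, Ahsg, Fetub, Ambp, Itih1 and Itih2) were found by symbol in the deposited table of transcript abundances, where they made up 10 of 54446 genes and 40 of 137767 transcripts. RNA abundance was measured by sequencing of purified hepatocytes from C57BL/6 mice after loss of the splicing factor SRSF1. Knockout (HKO) mice were srsf1f/f;albcre+/-, with Cre driven by the albumin gene's promoter, and gave 2 libraries on postnatal day 10 (P10) and 2 at the age of 1 month, against 2 libraries of albcre+/- control mice at each age. The control genotype names the Cre transgene and no floxed Srsf1, so the floxed line and the deletion cannot be told apart at these ages. In the acute model all mice were srsf1f/f, were injected at 8 weeks with an AAV8 vector driven by the hepatocyte TBG promoter, and were sampled at 10 weeks. There were 3 libraries from mice given aav-tbg-icre (acHKO) and 3 from mice given aav-tbg-gfp (GFP), so iCre itself and the deletion cannot be told apart. Whether replicates came from separate animals is not labelled, so p-values measure the spread between the libraries of a fit, which may be technical. Xist measured 0.0102 and 74.7 TPM in the 2 HKO libraries at P10, so those 2 were not repeats of 1 sample.

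Hepatocytes make most plasma proteins and secrete them without storing them, so the RNA of these genes is among the most abundant in the liver. Albumin binds fatty acids, bilirubin and hormones, and vitamin D binding protein (Gc) is its relative in the same gene cluster. Transthyretin (Ttr) carries thyroxine and, bound to retinol binding protein (Rbp4), retinol, while transferrin (Trf) carries iron. Fetuin-A (Ahsg) keeps calcium phosphate in solution, and fetuin-B (Fetub) inhibits the protease that hardens the egg coat. Ambp encodes the precursor of alpha-1-microglobulin and bikunin, and bikunin joins the heavy chains encoded by Itih1 and Itih2 in inter-alpha-inhibitor.

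In the GRCm38 annotation Gc lies at chr5:89417522-89457898 on the minus strand and Alb at chr5:90460897-90476602 on the plus strand. The fetuin genes are also neighbours, with Ahsg at chr16:22891277-22899449 and Fetub at chr16:22918334-22939778, both on the plus strand. Other members are Trf (chr9:103204001-103230444, minus), Ambp (chr4:63143275-63154799, minus), Itih1 (chr14:30929180-30943289, minus), Itih2 (chr2:10094593-10131396, minus) and Rbp4 (chr19:38116629-38125281, minus). Promoter windows from RefSeq (GRCm38.p6), from 250 bases before to 50 after an annotated start, matched 8 of the 10 genes. The windows of Alb, Gc and Itih1 are shown. Alb and Gc belong to the albumin family and share a motif match, and Itih1 is the member with the largest fall at P10. Capitals mark matches to motifs of liver promoters, searched on both strands and written 5′ to 3′ in the direction of transcription.
Alb, chr5:90460620-90460919, plus strand: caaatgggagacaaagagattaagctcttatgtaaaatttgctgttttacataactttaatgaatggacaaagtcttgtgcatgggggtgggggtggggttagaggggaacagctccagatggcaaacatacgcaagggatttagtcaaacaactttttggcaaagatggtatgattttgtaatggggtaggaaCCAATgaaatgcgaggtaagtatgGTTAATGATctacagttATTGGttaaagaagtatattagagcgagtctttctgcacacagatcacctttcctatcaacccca
Gc, chr5:89457849-89458148, minus strand: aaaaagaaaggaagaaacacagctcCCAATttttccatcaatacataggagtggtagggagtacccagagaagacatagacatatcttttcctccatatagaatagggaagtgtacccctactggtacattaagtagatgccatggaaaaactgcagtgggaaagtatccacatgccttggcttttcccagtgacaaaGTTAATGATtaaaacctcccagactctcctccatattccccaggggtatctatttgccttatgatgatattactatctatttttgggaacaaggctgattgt
Itih1, chr14:30943240-30943539, minus strand: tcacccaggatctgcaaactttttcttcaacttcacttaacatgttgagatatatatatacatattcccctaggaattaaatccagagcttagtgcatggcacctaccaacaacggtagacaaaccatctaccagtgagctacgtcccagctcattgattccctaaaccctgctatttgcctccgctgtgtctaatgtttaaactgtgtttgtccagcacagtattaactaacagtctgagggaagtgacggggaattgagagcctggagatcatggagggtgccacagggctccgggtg
The HNF1 half-site GTTAATNAT was matched as GTTAATGAT in both Alb, at -32 to -24 from the start, and Gc, at -52 to -44. This half-site was matched in 0.801% of 32851 promoter windows. The motifs were chosen after the Alb promoter had been seen, so that share does not measure how unexpected the Alb match is. The CCAAT box (CCAAT) was matched in Alb and Gc and in 37.4% of windows, and it shared no base with the HNF1 matches. None of the 6 motifs searched was matched in Itih1, nor in Itih2, which was not called at P10. Whether the matches go with the changes was not tested. The TATA box (TATAAA) was matched in windows of Fetub and Rbp4 and in 13.6% of all windows. A match is a description of the letters and not a measured binding site.

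Values are gene sums of TPM, a length-corrected relative abundance with the same total in every library. The depth of each library is unknown, because it cannot be read from TPM. Fold changes are on the log2(TPM + 1) scale. The median gene shifted by 0.25 in HKO against control libraries at P10, by -0.001 in those of 1 month and by -0.36 in acHKO against GFP libraries. Log2 fold changes of single genes are given relative to this median, with their standard error after the ± sign, whereas the tests are of the unshifted change. Adjusted p-values come from limma with Benjamini-Hochberg adjustment over all genes tested on the deposited TPM, and a gene was called below 0.05. That test was repeated after median-ratio rescaling, which divides each library by its median ratio to the mean library, and is quoted where the call differs. All 10 members passed the filter of a mean of at least 1 TPM in each fit.

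Before the members, the targeted gene and the libraries were checked. Srsf1 was lower in each knockout library than in each matching control library, with means of 26.7 ± 4.62 TPM in HKO and 45.01 ± 2.01 TPM in control libraries at P10 (SD, n = 2 each), 8.46 ± 1.01 TPM in HKO and 21.6 ± 2.23 TPM in control libraries at 1 month (n = 2 each), and 4.39 ± 0.849 TPM in acHKO and 26.2 ± 8.47 TPM in GFP libraries (n = 3 each). Such a separation was seen in 13.4%, 15.6% and 47.1% of all genes in these comparisons. By limma Srsf1 was called lower at 1 month and in the acute comparison (adjusted p = 0.006101 and 2.767e-06). At P10 it missed the threshold on the deposited TPM (adjusted p = 0.05451) and passed it after rescaling (adjusted p = 0.009495). Mitochondrially encoded genes held 27.5% to 33.9% of TPM in HKO and 28.3% to 31.7% in control libraries at P10, but 35.8% to 50.6% in HKO and 26.0% to 31.2% in control libraries at 1 month. In the acute model they held 33.5% to 42.9% in acHKO and 11.8% to 16.1% in GFP libraries. All 12 other hepatocyte markers were above 1 TPM in at least 1 library of each group. The same held in both P10 groups for all 12 macrophage and all 10 endothelial markers, so this bar does not test purity. Replicate 2 of the HKO libraries at P10 stood apart, with 74.7 TPM of Xist and 2919 TPM summed over erythroid markers. The other 13 libraries had at most 0.0147 TPM of Xist, and the erythroid sum was 486 TPM in the other HKO library and 229 to 385 TPM in the controls at P10. In bulk libraries, fewer cells of a type and less RNA per cell cannot be told apart.

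Albumin was the most abundant RNA of the P10 control libraries, ranking 1 among all genes by mean TPM, and ranked 2 in HKO at P10. Its rank was 5 in HKO and 2 in control libraries at 1 month, and 12 in acHKO and 7 in GFP libraries. Trf and Ahsg followed it, with ranks between 9 and 36 in the 6 groups. At the low end Fetub and Itih1 ranked between 178 and 730. Together the 10 genes held 10.3% ± 1.31 of library TPM in HKO and 14.96% ± 0.374 in control libraries at P10 (SD, n = 2 each). The share was 7.002% ± 1.36 in HKO and 7.87% ± 1.23 in control libraries at 1 month, and 3.92% ± 0.732 in acHKO and 5.25% ± 0.661 in GFP libraries (n = 3 each). With mitochondrially encoded genes left out of the total, the acute groups held 6.23% ± 0.709 in acHKO and 6.14% ± 0.911 in GFP libraries, while at P10 the gap between groups remained, at 14.9% ± 0.921 in HKO and 21.4% ± 0.201 in control libraries. At 1 month the order of the groups turned, with 12.3% ± 0.124 in HKO and 10.99% ± 1.15 in control libraries, and both HKO libraries lay above both controls. These shares are descriptions and were not tested.

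**Figure D1:**
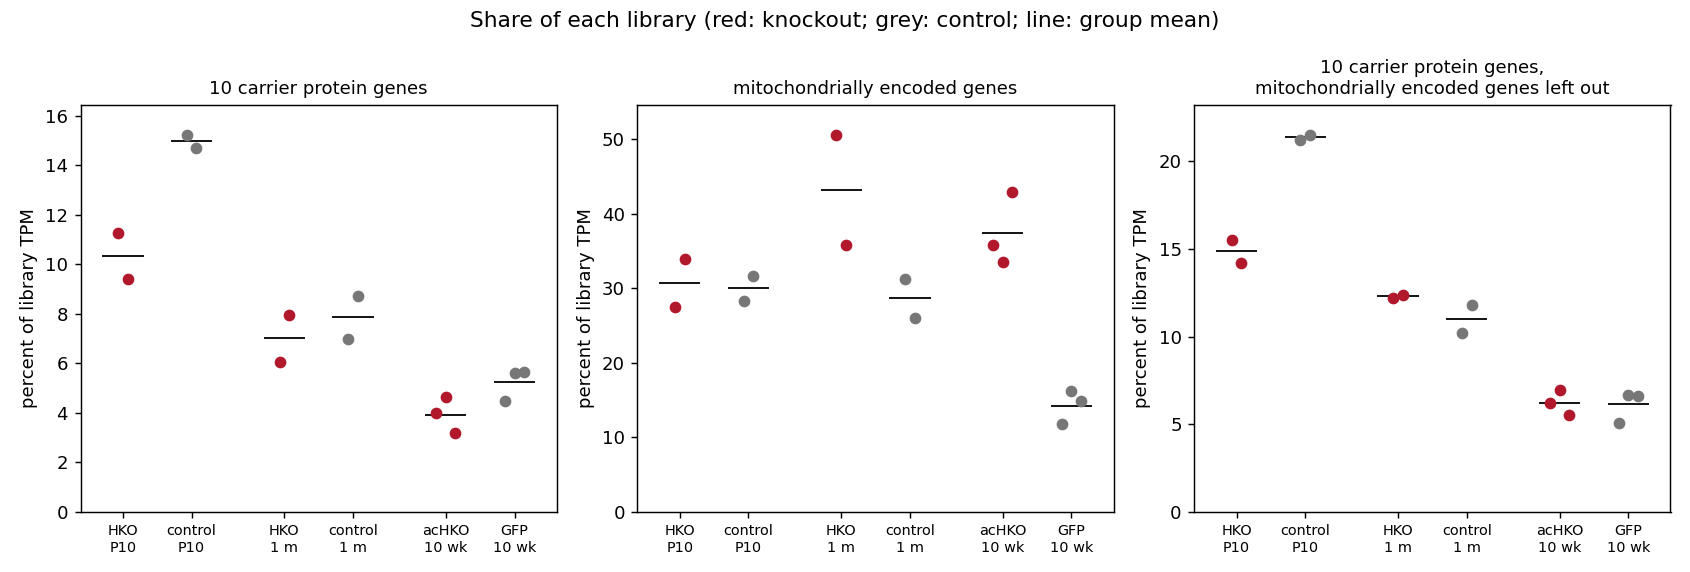
Share of library TPM held by the 10 carrier protein genes (left), by mitochondrially encoded genes (middle) and by the 10 genes once mitochondrially encoded genes are left out (right); points are libraries and lines are group means. The HKO libraries lie below the controls at P10 in the left and right panels, the groups of 1 month overlap in the left panel and stand apart with HKO higher in the right panel (12.2% to 12.4% in HKO and 10.2% to 11.8% in control libraries), and the acute groups overlap in the right panel, at 5.53% to 6.95% in acHKO and 5.08% to 6.69% in GFP libraries.

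At P10, 4 of the 10 genes fell in the knockout and none rose: Alb, Ttr, Fetub and Itih1. The share of all 11736 tested genes called lower was 1.87%. After median-ratio rescaling 6 genes fell, Ahsg and Ambp being added, against 8.01% of all genes. The relative log2 fold change was below 0 for 10 of 10 genes, with a median of -0.62. In 6 genes each HKO library lay below each control library, against 13.4% of all genes. In 0 members did each HKO library lie above each control library, against 62.6% of all genes.

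Albumin measured 55335 and 41741 TPM in the HKO libraries, against 83008 and 79335 TPM in the control libraries at P10. The groups did not overlap, and the lower HKO value was that of replicate 2. The relative log2 fold change was -1.01 ± 0.216 (SE), with an adjusted p of 0.04308. Gc, its family member with the shared motif match, measured 3478 and 3116 TPM in HKO libraries, against 3712 and 3474 TPM in control libraries. The higher HKO value of Gc lay above the lower control value, and its fold change of -0.38 ± 0.196 was not called (adjusted p = 0.6904).

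The thyroxine and retinol carriers had unlike values at P10. Ttr (chr18:20665280-20674321, plus strand) measured 4305 and 3510 TPM in HKO libraries, against 9313 and 8808 TPM in control libraries. This was a clear separation, with a relative log2 fold change of -1.47 ± 0.202 and an adjusted p of 0.003001. Its partner Rbp4 measured 2737 and 2468 TPM in HKO libraries, against 2656 and 2507 TPM in control libraries. The Rbp4 groups overlapped, and its change of -0.24 ± 0.211 was not called (adjusted p = 0.9792). Trf, the iron carrier, likewise overlapped, at 23039 and 24354 TPM in HKO libraries, against 23480 and 23333 TPM in control libraries.

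Both fetuins were lower in each HKO library at P10. Fetub measured 172 and 145 TPM in HKO libraries, against 326 and 286 TPM in control libraries, a relative log2 fold change of -1.20 ± 0.240 (adjusted p = 0.02731). Ahsg, its far more abundant neighbour, measured 20329 and 15836 TPM in HKO libraries, against 26022 and 25528 TPM in control libraries. The Ahsg change of -0.78 ± 0.186 missed the threshold on the deposited TPM (adjusted p = 0.09162) and passed it after median-ratio rescaling (adjusted p = 0.0248).

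Of the inter-alpha-inhibitor subunits, Itih1 measured 169.8 and 121 TPM in HKO libraries, against 360.2 and 368 TPM in control libraries at P10. Its relative log2 fold change of -1.59 ± 0.259 (adjusted p = 0.007426) was the largest fall among the 10 genes. Itih2, the other heavy chain, measured 1351 and 1119 TPM in HKO libraries, against 1363 and 1338 TPM in control libraries, and its change of -0.39 ± 0.291 was not called (adjusted p = 0.7781). Ambp, which supplies bikunin, measured 1741 and 1688 TPM in HKO libraries, against 2005 and 1980.4 TPM in control libraries. Those groups did not overlap, but the change of -0.47 ± 0.209 passed after rescaling and not on the deposited TPM (adjusted p = 0.5031 on the deposited TPM and 0.04599 after rescaling).

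Leaving out 1 library at P10 left between 1 and 3 genes called on the deposited TPM, and between 3 and 5 after rescaling. On the deposited TPM Ttr was called in each of those 4 fits, whereas Alb and Itih1 were called only without HKO replicate 1 and Fetub in none; without HKO replicate 2, the library that stood apart, Alb had a relative change of -0.85 (adjusted p = 0.2188), Fetub -1.12 (adjusted p = 0.2136) and Itih1 -1.39 (adjusted p = 0.08589). In the authors' deposited table for P10, 9 of the 10 genes were lower at an adjusted p below 0.05, against 11.8% of all genes there; the exception was Trf, with a log2 fold change of -0.29 and an adjusted p of 0.05602 in the authors' deposited table.

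**Figure D2:**
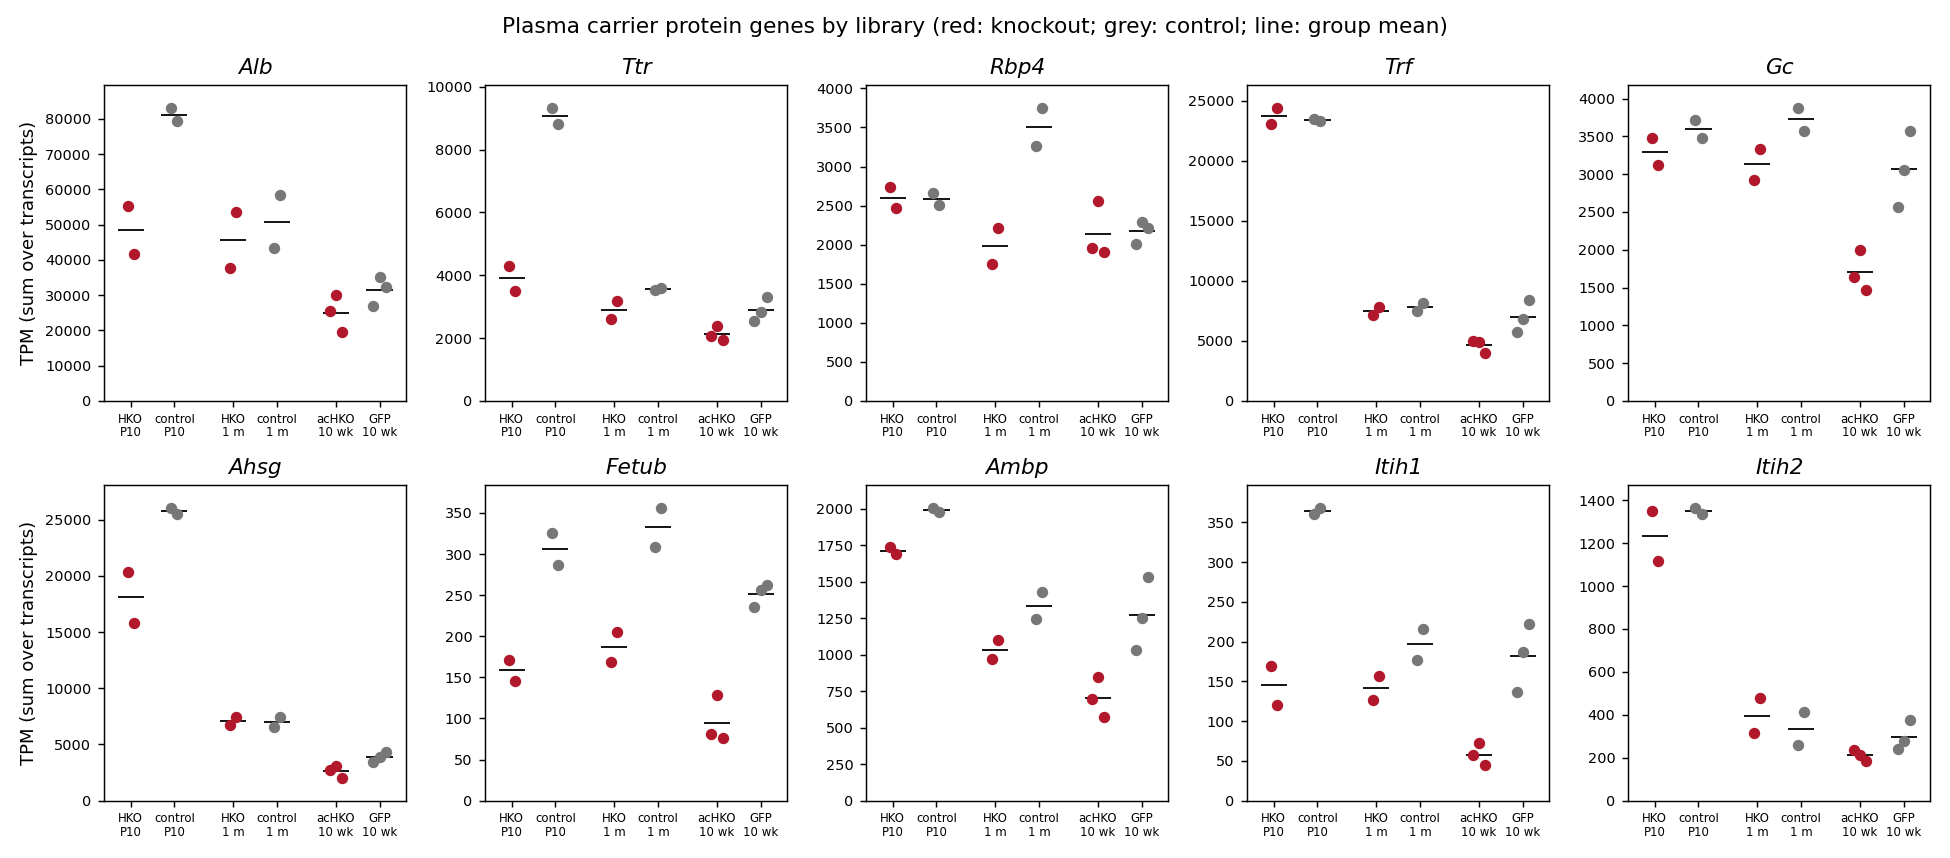
TPM of each gene by library, on a linear axis from 0; red points are knockout libraries, grey points are control libraries and lines are group means. At P10 the red and grey points stand apart for Alb, Ttr, Ahsg, Fetub, Ambp and Itih1, and the means of Ttr are 3908 TPM in HKO and 9061 TPM in control libraries.

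At 1 month the knockout effect was called for 1 gene, Rbp4, which was lower, against 1.99% of all genes called lower. After median-ratio rescaling Fetub was called as well, against 7.45% of all genes. The median relative log2 fold change of the 10 genes was -0.28. Each HKO library lay below each control library for 6 genes (Ttr, Rbp4, Gc, Fetub, Ambp and Itih1), against 15.6% of all genes.

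Rbp4 measured 1753 and 2213 TPM in HKO libraries, against 3269 and 3745 TPM in control libraries at 1 month. The relative log2 fold change was -0.83 ± 0.211, with an adjusted p of 0.03877. The adjusted p was 0.07649 without HKO replicate 1, 0.08318 without control replicate 1 and 0.2154 without control replicate 2, with changes between -0.86 and -0.81. Fetub measured 168 and 205 TPM in HKO libraries, against 309 and 356 TPM in control libraries, and its change was also -0.83 (SE 0.240; adjusted p = 0.06706, and 0.007297 after rescaling). In the authors' deposited table for 1 month the same pair, Rbp4 and Fetub, were the 2 members called, with log2 fold changes of -0.90 and -0.91, against 4.53% of all genes lower in that table.

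The genes with the clearest falls at P10 were closer to their controls at 1 month. Ttr measured 2616 and 3170 TPM in HKO libraries, against 3525 and 3588 TPM in control libraries, a relative change of -0.30 ± 0.202 (adjusted p = 0.489). Itih1 measured 127 and 157 TPM in HKO libraries, against 177 and 216 TPM in control libraries, a change of -0.47 ± 0.259 (adjusted p = 0.3804). Albumin overlapped, at 37610 and 53716 TPM in HKO libraries, against 43304 and 58453 TPM in control libraries. In each group the lower albumin value was that of replicate 1, and the same libraries had more of the short 3′ transcript Gc-202, at 506 TPM in replicate 1 and 124 TPM in replicate 2 of HKO, and 910.3 TPM in replicate 1 and 163 TPM in replicate 2 of the controls. The part of these transcript differences in the values of the members was not tested. Gc measured 2928 and 3332 TPM in HKO libraries, against 3871 and 3576 TPM in control libraries at 1 month. Ambp measured 970.1 and 1099 TPM in HKO libraries, against 1242 and 1431 TPM in control libraries. Neither gene overlapped between the groups and neither was called, with relative changes of -0.25 ± 0.196 for Gc and -0.37 ± 0.209 for Ambp (adjusted p = 0.5662 and 0.3959). After quantile normalization the direction turned for Gc (0.55), Ambp (0.18) and Ttr (0.46, called higher at an adjusted p of 0.04975), and the call of Rbp4 was lost (adjusted p = 0.2748). Trf, Ahsg and Itih2 overlapped between the groups, with relative changes of -0.06, 0.02 and 0.25 that were not called.

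Whether the effect differed between the ages was tested directly. The median gene shifted by -0.25 in this contrast. No member was called on the deposited TPM by limma, against 2.8% of all genes in either direction, and 3 members had an unadjusted p under 0.05 (Ttr, Rbp4 and Itih1). For Ttr the 1 month effect was less negative than the P10 effect by 1.17 ± 0.285 on the relative log2 scale (adjusted p = 0.1362), and for Itih1 by 1.12 ± 0.367 (adjusted p = 0.2698). After median-ratio rescaling both differences were called, against 5.92% of all genes in either direction, at 1.22 ± 0.204 (adjusted p = 0.02429) for Ttr and 1.17 ± 0.207 (adjusted p = 0.02843) for Itih1. The call therefore depended on the scaling.

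In the acute model 4 of the 10 genes fell in the knockout and none rose, against 34.8% of all 9963 tested genes called lower. That share is close to the members' share, so the count says nothing particular to these genes. The 4 genes were Gc, Ambp, Fetub and Itih1. After median-ratio rescaling the call held for Fetub and Itih1, against 18.8% of all genes lower. Each acHKO library lay below each GFP library for 8 genes, all but Alb and Rbp4, against 47.1% of all genes.

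Itih1 measured 57.02, 72.02 and 44.9 TPM in acHKO libraries, against 137, 187 and 222 TPM in GFP libraries. The highest acHKO library was well below the lowest GFP library, and the relative log2 fold change was -1.27 ± 0.231 (adjusted p = 5.855e-05, and 0.00311 after rescaling). Fetub measured 80.7, 129 and 75.8 TPM in acHKO libraries, against 236, 257 and 262 TPM in GFP libraries. Its change was -1.07 ± 0.223 (adjusted p = 0.0001339, and 0.01472 after rescaling). Both genes were called in each of the 6 fits that left out 1 library.

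Gc measured 1639, 2001 and 1465 TPM in acHKO libraries, against 2565, 3058 and 3572 TPM in GFP libraries. Ambp measured 696, 844 and 572 TPM in acHKO libraries, against 1030.4, 1253 and 1532 TPM in GFP libraries. The groups did not overlap for either gene, and both had a relative change of -0.49 (SE 0.235 for Gc and 0.234 for Ambp; adjusted p = 0.009593 and 0.009081). Both calls were lost after median-ratio rescaling (adjusted p = 0.08745 and 0.07858), without GFP replicate 3 (adjusted p = 0.0523 and 0.05614) and with mitochondrially encoded genes left out (adjusted p = 0.2187 and 0.2166).

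Albumin overlapped between the acute groups, at 25366, 30032 and 19438 TPM in acHKO libraries, against 26907, 35206 and 32259 TPM in GFP libraries. Its relative change was 0.01 ± 0.278 and was not called (adjusted p = 0.3195). Ttr measured 2058, 2384 and 1945 TPM in acHKO libraries, against 2532, 2832 and 3300.3 TPM in GFP libraries. Those values did not overlap, yet relative to the median gene the change was -0.07 ± 0.229 (adjusted p = 0.1307), and after rescaling it was 0.0033 relative to the median gene. Rbp4, the member called at 1 month, measured 1953, 2564 and 1904 TPM in acHKO libraries, against 2013, 2289 and 2218 TPM in GFP libraries, with a relative change of 0.33 ± 0.228 (adjusted p = 0.9146). Trf measured 4979, 4925 and 3973 TPM in acHKO libraries, against 5715, 6826 and 8427 TPM in GFP libraries. Ahsg measured 2717, 3069 and 2020.3 TPM in acHKO libraries, against 3479, 3906 and 4319.8 TPM in GFP libraries. Itih2 measured 236, 213 and 185 TPM in acHKO libraries, against 241, 279.6 and 375 TPM in GFP libraries. Each of these 3 genes was lower in each acHKO library, but none was called, with relative changes of -0.22 ± 0.248 for Trf, -0.24 ± 0.241 for Ahsg and -0.12 ± 0.219 for Itih2 (adjusted p = 0.06708, 0.05516 and 0.08465). The authors' deposited table for the acute comparison called the same 4 genes, with log2 fold changes of -1.33 for Itih1, -1.12 for Fetub and -0.54 for both Gc and Ambp, against 16.1% of all genes lower in that table.

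**Figure D3:**
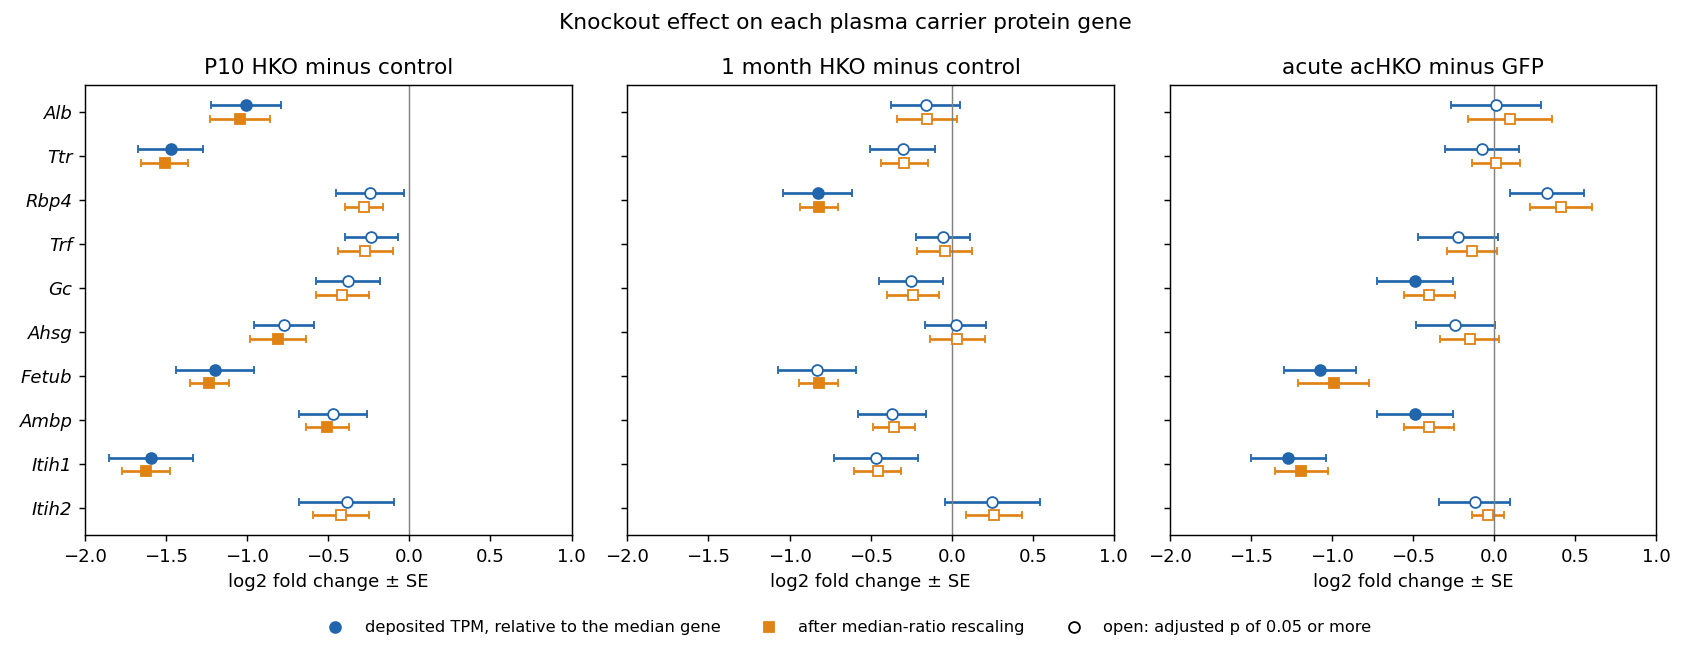
Log2 fold change of each gene with its standard error in the 3 knockout comparisons, on deposited TPM relative to the median gene (circles) and after median-ratio rescaling (squares); filled symbols passed an adjusted p of 0.05. Fetub and Itih1 lie left of 0 in all 3 panels, Alb and Ttr are filled at P10 alone, and Rbp4 is filled at 1 month alone.

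The acute effect was also set against the 1 month effect in 1 fit of all 14 libraries, in which model, age and agent cannot be told apart and the median gene shifted by -0.33. No member was called by limma on the deposited TPM, against 6.83% of all genes in either direction, and 2 members had an unadjusted p under 0.05 (Rbp4 and Itih1). For Rbp4, which fell at 1 month and was not called in the acute comparison, the acute effect lay higher by 1.12 ± 0.277 (adjusted p = 0.09601). After median-ratio rescaling the difference was 1.22 ± 0.238 (adjusted p = 0.007382), when 16.8% of all genes were called in either direction. For Itih1 the acute effect was more negative by -0.83 ± 0.359 (adjusted p = 0.06529, and 0.05936 after rescaling).

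Several members changed with age. From P10 to 1 month the median gene shifted by -0.70 in HKO and by -0.43 in control libraries, and 62.2% of all genes in HKO and 38.2% in controls were called lower on the deposited TPM. Against these shares, 4 of the 10 members fell in HKO (Trf, Ahsg, Ambp and Itih2) and 7 in controls, where only Rbp4, Gc and Fetub were not called. None was called higher in either. After rescaling 5 members were higher and 2 lower at 1 month in HKO, against 21.6% and 22.1% of all genes, and 3 were higher and 4 lower in controls, against 23.9% and 23.6%.

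Trf, Ahsg and Itih2 showed the clearest difference between the ages. Trf measured 7189 and 7798 TPM at 1 month and 23039 and 24354 TPM at P10 in HKO libraries, and 7475 and 8109 TPM at 1 month and 23480 and 23333 TPM at P10 in control libraries. Its relative change was -0.96 ± 0.165 in HKO (adjusted p = 1.537e-05) and -1.16 ± 0.165 in controls (adjusted p = 1.949e-05). Itih2 measured 315 and 478 TPM at 1 month and 1351 and 1119 TPM at P10 in HKO libraries, and 259 and 411 TPM at 1 month and 1363 and 1338 TPM at P10 in control libraries. Both groups separated fully by age, with relative changes of -0.96 ± 0.291 in HKO (adjusted p = 0.0007022) and -1.62 ± 0.291 in controls (adjusted p = 0.0001946). Ahsg averaged 7101 ± 520.0 TPM at 1 month and 18082 ± 3177 TPM at P10 in HKO libraries, and 6994 ± 633 TPM at 1 month and 25775 ± 349 TPM at P10 in control libraries (SD, n = 2 each). Its relative fall was called in HKO (-0.64 ± 0.186, adjusted p = 0.0001522) and in controls (-1.46 ± 0.186, adjusted p = 1.364e-05), but after rescaling the HKO call was lost (adjusted p = 0.05448).

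Transthyretin was called between the ages in control libraries alone. In control libraries it was called lower at 1 month, at 3556 ± 44.6 TPM, than at P10, at 9061 ± 357 TPM, a relative change of -0.92 ± 0.202 (adjusted p = 0.0002793). In HKO libraries it averaged 2893 ± 392 TPM at 1 month and 3908 ± 562 TPM at P10, a relative change of 0.27 ± 0.202, or of -0.43 before the shift of the median gene was taken off, that was not called (adjusted p = 0.07751). The difference between these changes equals the difference between the knockout effects at the 2 ages, whose test is given above. In the adult acute groups Ahsg averaged 2602 ± 534 TPM in acHKO and 3901 ± 420.4 TPM in GFP libraries, and Itih2 211 ± 25.5 TPM in acHKO and 299 ± 69.1 TPM in GFP libraries (SD, n = 3 each).

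Transcript usage was compared because SRSF1 regulates splicing. Trf has 9 annotated transcripts and Fetub 7, and the share of the gene held by the leading transcript of each library varied widely in both, from 35.8% to 51.9% for Trf and from 55.7% to 91.5% for Fetub over the 14 libraries. For Trf the leading transcript itself differed. It was Trf-203 in GFP libraries and in HKO replicate 1 at P10, Trf-201 in acHKO libraries and the retained-intron Trf-209 in the others. For Alb, Ttr, Rbp4, Ahsg, Ambp and Itih2 the leading transcript held over 97% in each library, and none of these was testable. Usage was tested with limma's diffSplice on transcripts holding at least 5% of their gene, and a gene was called at an adjusted p below 0.05 with a share differing by at least 10 percentage points. At P10 and at 1 month 4 members were testable (Trf, Gc, Fetub and Itih1), and none was called at either age, against 0.586% of all genes at P10 and 0.234% at 1 month; none of the 4 had an unadjusted p under 0.05 at either age, the smallest being 0.5426. In the acute comparison 2 of 3 testable members were called, Trf and Fetub, against 35.5% of all 3415 genes tested.

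Fetub-202 lacks exon 2 of Fetub-201, of 235 bases, and starts within its exon 1. The junctions that tell them apart are shown with the sequence after the junction in capitals, from the GENCODE M21 transcripts (chr16, plus strand).
Fetub-201, exon 1 to exon 2: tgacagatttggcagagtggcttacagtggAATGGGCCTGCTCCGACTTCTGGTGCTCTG
Fetub-202, exon 1 to exon 2: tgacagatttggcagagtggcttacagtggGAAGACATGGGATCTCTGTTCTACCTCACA
Fetub-202 held 33.02%, 27.2% and 31.6% of Fetub TPM in acHKO libraries, against 5.87%, 7.23% and 3.94% in GFP libraries. The acHKO shares were close to those of the albumin-Cre model, where Fetub-202 held 24.4% to 40.5% in HKO and 25.4% to 39.9% in control libraries of both ages. The GFP libraries were thus the ones that stood apart. Fetub-201 held 65.3% ± 2.64 in acHKO and 89.9% ± 1.48 in GFP libraries (SD, n = 3 each), and the test gave an adjusted p of 1.91e-05. The share of Fetub-201 among the 2 tested transcripts was 26.0 points lower in acHKO libraries.

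For Trf the libraries that stood apart depended on the transcript. Trf-209, a retained-intron transcript of 433 bases at the 3′ end, held 32.5%, 30.5% and 38.2% of Trf TPM in acHKO libraries, against 10.2%, 9.55% and 10.6% in GFP libraries. In the albumin-Cre model it held 35.03% to 50.3% in HKO and 41.2% to 49.6% in control libraries. Trf-203, a full-length coding transcript, held 25.0% ± 3.62 in acHKO and 51.4% ± 0.392 in GFP libraries, against 19.1% to 38.2% in HKO and 17.5% to 31.3% in control libraries of the albumin-Cre model. For these 2 transcripts the GFP libraries lay outside the range of the other 11. Trf-201, also coding, held 40.5% ± 0.794 in acHKO and 29.9% ± 0.932 in GFP libraries, against 26.1% to 28.2% in HKO and 25.4% to 30.3% in control libraries, so that here the acHKO libraries lay apart. The adjusted p of the test was 5.114e-06. Because TPM divides by length, the short Trf-209 weighs more in the sum for Trf than the same number of reads from a full-length transcript would.

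One transcript of Trf separated the GFP libraries from all others. Trf-206, a coding transcript of 563 bases, measured 0.42, 0.25 and 0.16 TPM in acHKO libraries, against 427, 594 and 705 TPM in GFP libraries. The 8 albumin-Cre libraries measured between 0.39 and 4.64 TPM. Of 137767 transcripts it was the only one with at least 5 TPM in each GFP library and more than 20 times the highest value in any other library. It held 8.18% ± 0.641 of Trf in GFP libraries, and it was left out of the usage test above because its mean over the 6 libraries was under 5% of Trf. With transcripts from 1% of their gene admitted, Trf was again called (adjusted p = 3.198e-16).

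Trf-206 ends exon 4 at 103226066 on chr9 (minus strand), 105 bases before the end of that exon in Trf-203, and joins it to 103222212, inside exon 8 of Trf-203. Of its 533 stretches of 31 bases, 23 occur in no other annotated transcript, and all 23 span this junction. The abundance of Trf-206 can be told from that of other Trf transcripts by reads over this junction alone. The junction is shown beside those of Trf-203 that it replaces, with the bases after each junction in capitals.
Trf-206, exon 4 to exon 5: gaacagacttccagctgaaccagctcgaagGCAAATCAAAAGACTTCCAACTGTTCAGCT
Trf-203, exon 4 to exon 5: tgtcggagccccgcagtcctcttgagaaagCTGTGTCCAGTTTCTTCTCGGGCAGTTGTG
Trf-203, exon 7 to exon 8: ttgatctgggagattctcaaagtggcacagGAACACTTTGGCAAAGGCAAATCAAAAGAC
The last 3 bases before the Trf-206 junction are also the 3 bases before its entry point in exon 8.

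**Figure D4:**
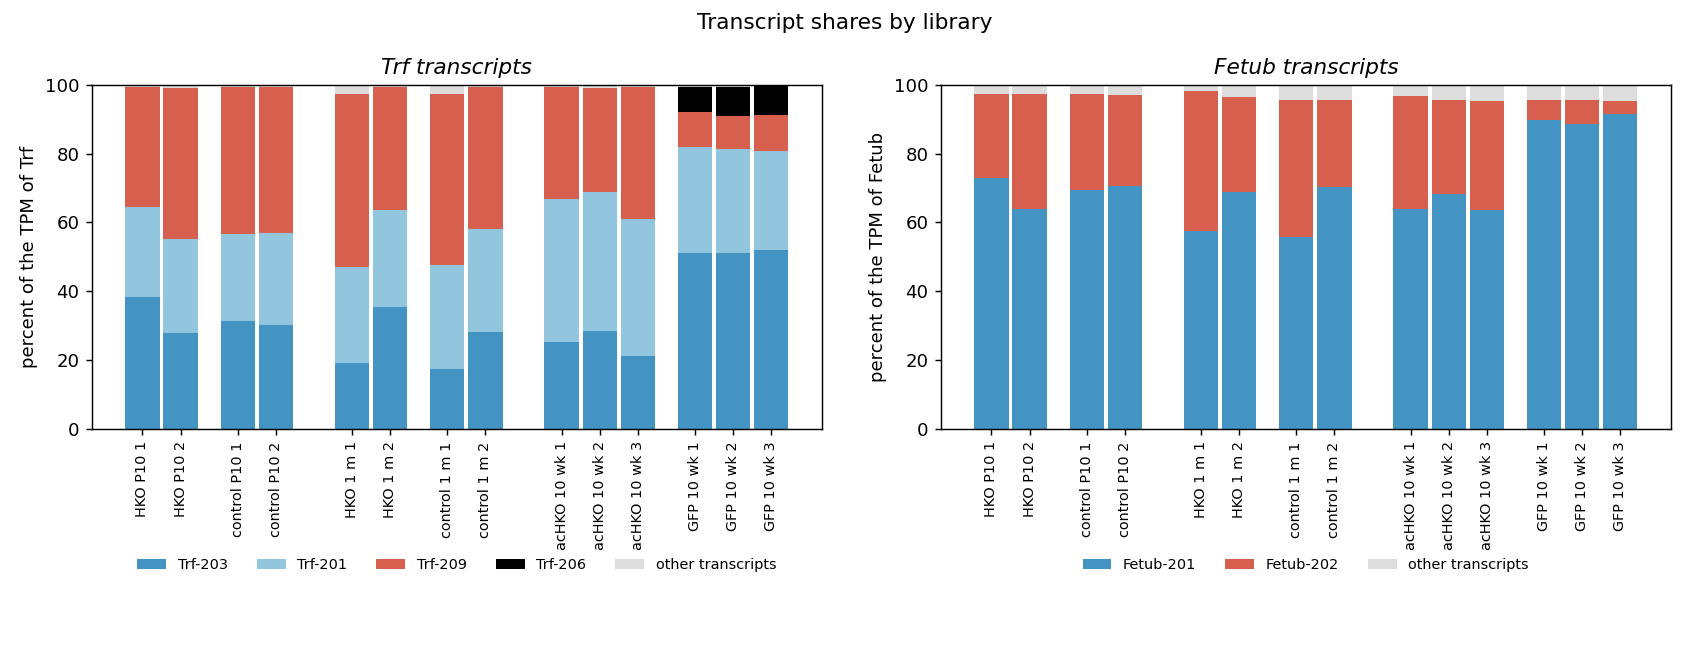
Percent of the TPM of Trf (left) and of Fetub (right) held by each transcript, 1 bar per library in its group. In the 3 GFP libraries Trf-209 and Fetub-202 hold less than in the other 11 libraries, and Trf-206 is visible in these libraries alone.

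Among relatives of these genes the direction was not uniform. Of 8 related family members at P10, 3 were lower (Hrg, Itih4 and Afm) and 2 higher (Afp and Itih5), with a median relative log2 fold change of -0.74, and 6 were lower and 2 higher after rescaling. The shares of all genes called lower at P10 were 1.87% on the deposited TPM and 8.01% after rescaling. Afp, the fetal relative of albumin in the same cluster, measured 6098 and 8500 TPM in HKO libraries, against 1107 and 1468 TPM in control libraries. The HKO values lay far above the controls, with a relative change of 2.24 ± 0.262 (adjusted p = 0.0001574). Afm, a vitamin E carrier of the albumin family, measured 193 and 142 TPM in HKO libraries, against 309 and 298 TPM in control libraries (relative change -1.13 ± 0.246, adjusted p = 0.04088). In the acute comparison, where 34.8% of all genes were lower, 5 of 7 tested relatives were lower and none higher, Afm among them at 17.7, 35.5 and 22.8 TPM in acHKO libraries, against 109.9, 130.2 and 129 TPM in GFP libraries. At 1 month Itih4 was called, with a relative change of -0.96 ± 0.213 (adjusted p = 0.01943), and after rescaling Kng2, a kininogen, as well (adjusted p = 0.03522). All genes called lower at 1 month made up 1.99% on the deposited TPM and 7.45% after rescaling.

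Of 14 other plasma carriers, 3 were lower and 1 higher at P10, 1 lower and 1 higher at 1 month, and 7 lower and none higher in the acute comparison, where 34.8% of all genes were lower, with median relative changes of -0.38, -0.47 and -0.22. After rescaling the counts were 5 lower and 0 higher, 4 lower and 2 higher, and 5 lower and 3 higher. Igfals, the acid-labile subunit that carries IGF complexes, measured 13.97 and 10.03 TPM in HKO libraries, against 58.8 and 57.7 TPM in control libraries at P10. It was also called in the acute comparison, at 4.48, 10.5 and 3.44 TPM in acHKO libraries, against 30.3, 40.5 and 43.2 TPM in GFP libraries. Serpina7, the thyroxine-binding globulin, was the carrier called higher at 1 month (relative change 1.24 ± 0.252, adjusted p = 0.01277).

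Of 12 genes of cargo handling, receptors and salvage, none was called at P10 by limma on the deposited TPM, where 2 had an unadjusted p under 0.05. After rescaling 4 were lower, beside 8.01% of all genes. At 1 month 1 was higher and 1 lower, and 2 were higher and 3 lower after rescaling, beside 1.99% and 7.45% of all genes lower. In the acute comparison 1 of 11 tested was higher and 2 were lower, with a median relative change of 0.10, beside 34.8% of all genes lower. After rescaling 4 were higher and 2 lower there, beside 18.8% of all genes lower. Tfr2, a transferrin receptor of hepatocytes, was 1 of the lower genes in the acute comparison (relative change -1.42 ± 0.224, adjusted p = 1.769e-05). Of 21 tested genes of secretory export, none was called by limma on the deposited TPM at P10 or 1 month, with 3 and 1 at an unadjusted p under 0.05. After rescaling 1 was higher and 1 lower at P10, and 4 were lower at 1 month, beside 8.01% and 7.45% of all genes lower. In the acute comparison 11 were lower and none higher, and 3 lower and 1 higher after rescaling, beside 34.8% and 18.8% of all genes lower on these scales. Among the lower genes was Lman1, a cargo receptor for glycoproteins, with a relative change of -0.69 ± 0.212.

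Transcription factors of hepatocytes were counted beside their targets. Of 16, 1 was higher at P10 (Cebpb, relative change 0.95 ± 0.298, adjusted p = 0.02482) and none lower on the deposited TPM. After rescaling, when 8.01% of all genes were lower, 4 of the 16 were lower. These were Foxa2, Onecut1, Cebpa and Nr1h4 (adjusted p = 0.01219, 0.03176, 0.03503 and 0.04958 after rescaling). At 1 month 3 were lower (Tef, Dbp and Hnf4a), beside 1.99% of all genes, and Onecut1 was higher. After rescaling 4 were lower there, beside 7.45% of all genes, Dbp being lost (adjusted p = 0.05471) and Hlf and Foxa3 gained (adjusted p = 0.02584 and 0.01959). In the acute comparison 11 were lower and none higher, and 6 lower and 2 higher after rescaling, beside 34.8% and 18.8% of all genes lower. Hnf4a, a regulator of many plasma protein genes, measured 44.8, 50.9 and 30.2 TPM in acHKO libraries, against 119.6, 155 and 114 TPM in GFP libraries. At P10 Hnf4a overlapped between groups, at 75.2 and 56.3 TPM in HKO libraries, against 64.1 and 64.3 TPM in control libraries. The part of these factors in the values of the carrier genes was not tested.

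Positive acute phase genes moved in both directions at P10, with 4 of 20 higher and 2 lower on the deposited TPM, and 2 higher and 7 lower after rescaling, beside 1.87% and 8.01% of all genes lower. Lcn2, an iron-sequestering lipocalin, measured 243 and 361 TPM in HKO libraries, against 30.5 and 34.9 TPM in control libraries. At 1 month 10 were lower and none higher (13 and 1 after rescaling), beside 1.99% and 7.45% of all genes lower. In the acute comparison 13 were lower and 1, Saa3, was higher (8 and 3 after rescaling), beside 34.8% and 18.8% of all genes lower. Saa4, with the smallest p of the list at 1 month, had a relative change of -3.05 ± 0.413 there (adjusted p = 0.001007) and of -3.65 ± 0.462 in the acute comparison (adjusted p = 7.17e-06). GFP replicate 2 stood apart for some of these genes. It had 1914 TPM of Saa1, against 149.5 and 264.7 TPM in the other GFP libraries, and 1379 TPM of Saa2, against 23.8 and 55.2 TPM. Not all genes of the list were highest there, as Hpx measured 2035 TPM in it and 2293 TPM in GFP replicate 3.

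Some markers of other liver cells also differed between knockout and control libraries. Macrophage markers summed to 509.9 to 742 TPM in HKO and 435 to 456 TPM in control libraries at P10, 56.8 to 158 TPM in HKO and 16.5 to 20.5 TPM in control libraries at 1 month, and 8.21 to 52.9 TPM in acHKO and 5.64 to 14.4 TPM in GFP libraries. Of the 12, 1 was called higher at P10, 9 at 1 month and 6 of 7 tested in the acute comparison, and none was called lower, while after rescaling 1, 4 and 0 were higher. Vsig4, C1qa, C1qb and C1qc averaged 2.35 to 3.10 TPM in acHKO and 0.712 to 0.956 TPM in GFP libraries. They passed the filter of 1 TPM through the acHKO libraries alone, so the acute count is not independent of the filter. Adgre1, Cd68, Marco and Timd4 were under 1 TPM in both control libraries at 1 month. Cholangiocyte markers summed to 137 to 169 TPM in HKO and 65.1 to 78.2 TPM in control libraries at P10, where 3 of 5 tested were higher (2 higher and 1 lower after rescaling), while Krt19 and Krt7 were under 1 TPM in both groups. At 1 month they summed to 24.8 to 38.4 TPM in HKO and 5.15 to 5.45 TPM in control libraries, where Spp1, a secreted phosphoprotein, was higher on both scales (relative change 3.62 ± 0.287, adjusted p = 2.305e-05). At P10 Cldn4 and Cldn7 averaged 10.6 and 14.1 TPM in HKO libraries, against 0.0244 and 0.778 TPM in controls. These 2 genes passed the filter through those HKO libraries alone, so the P10 count of cholangiocyte markers is not independent of the filter. Endothelial markers summed to 128 to 141 TPM in HKO and 108 to 109 TPM in control libraries at P10, and to 15.3 to 47.6 TPM in HKO and 10.6 to 13.3 TPM in control libraries at 1 month. By limma none of 10 was called at P10, also at an unadjusted p under 0.05, and 1 (Fcgr2b) was higher at 1 month, but none at either age after rescaling. Stellate and fibroblast markers summed to 157 to 200.2 TPM in HKO and 134 to 149 TPM in control libraries at P10, and to 11.8 to 31.5 TPM in HKO and 5.69 to 5.99 TPM in control libraries at 1 month. Of 8 tested, 2 were higher at P10 (Col1a1 and Lum) and 1 at 1 month (Col3a1), and 1 at each age after rescaling. Cholangiocyte markers in the acute comparison summed to at most 5.54 TPM in acHKO and 7.90 TPM in GFP libraries. Endothelial markers summed there to 11.8 to 27.3 TPM in acHKO and 5.87 to 15.9 TPM in GFP libraries, and stellate and fibroblast markers to 4.32 to 15.7 TPM in acHKO and 1.39 to 7.005 TPM in GFP libraries. By limma none of 2 cholangiocyte and 5 endothelial genes tested there was called (0 and 1 at an unadjusted p under 0.05, and 0 and 1 higher after rescaling), and the 1 stellate gene tested was higher, but not after rescaling. The part of these markers in the results for the carrier genes was not tested.

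The genes whose group means most resembled those of albumin over the 6 groups were Capn10, Rnf167 and Irgm1, with root-mean-square differences of centred log2(TPM + 1) means of 0.13, 0.15 and 0.16 among 6038 genes. For Ttr they were Fam210b, Echdc3 and Cpq, at 0.17, 0.20 and 0.22. No other member was among these nearest genes.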

How the data were processed

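Hepatocyte RNA was measured by stranded mRNA sequencing, per the labels' protocols. The authors deposited TPM per transcript for 14 libraries. Per the submitters' processing notes, bcl2fastq 2.17.1.14, kallisto 0.46.0 and DESeq2 were used with GRCm38 (mm10). The authors also deposited 3 gene tables that hold, per the file headers, the mean normalized count as a signal, the fold change on a log2 scale, its error, a Wald score, and p-values before and after adjustment.

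Gene TPM were summed over transcripts. Genes averaging 1 TPM or more over the libraries of a fit were tested on log2(TPM + 1) by limma (version 3.58.1, under R 4.3.3) with a mean-variance trend and two-sided tests. The 8 libraries of P10 and 1 month shared a fit with 4 residual degrees of freedom, as many as the acute fit of 6 libraries, and the fit of all 14 had 8. P-values were adjusted by Benjamini-Hochberg over all genes. The unit allowed no count model. The steps were tested on simulated data. Exons, coordinates and junctions are from GENCODE M21 (GRCm38), and promoters from RefSeq (GRCm38.p6). Identifiers and versions matched for 8 of the 10 genes, and for Ttr and Rbp4 the version differed. Motifs were chosen after the Alb promoter had been seen. The members and gene lists were chosen with earlier results of these data known.

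All 10 genes are named. Of other lists, up to 3 called genes with the smallest p per comparison were eligible, and any called against the direction of most. Hnf4a at P10 and in the acute comparison, and the markers at low levels, were added after their values were seen. So were the transcription factors lower at P10 after rescaling alone, and the acute phase values of GFP replicate 2. Neighbours in pattern were sought for Alb and Ttr among genes averaging 5 TPM or more, leaving out predicted genes and pseudogenes. Median-ratio rescaling divided each library's TPM by the median, over genes, of its ratio to the geometric mean of the libraries. The alternatives were other scalings, pseudocounts, filters, a replicate block and leaving out each library, and the rescaled fits without 1 library were added after the data had been seen. One gene of the other lists is not reported here.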

Additional observations from a re-analysis of the deposited data

Results flagged for a closer look

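Ttr and Itih1 had effects that differed between the ages once the TPM had been rescaled by median ratios, by a test of the difference itself. The falls were smaller at 1 month, at -0.29 against -1.51 at P10 for Ttr and -0.46 against -1.62 for Itih1. The differences were 1.22 ± 0.204 for Ttr and 1.17 ± 0.207 for Itih1 on the log2 scale (limma, Benjamini-Hochberg adjusted p = 0.02429 and 0.02843). Rbp4 differed between the acute and the 1 month comparison, by 1.22 ± 0.238 (adjusted p = 0.007382), its change being the lower at 1 month. None of the 3 differences passed on the deposited TPM, where the adjusted p was 0.1362 for Ttr, 0.2698 for Itih1 and 0.09601 for Rbp4. With mitochondrially encoded genes left out of the TPM all 3 passed, at an adjusted p of 0.009517 for Ttr, 0.02823 for Itih1 and 0.01366 for Rbp4. With 1 library left out as well as rescaled, between 0 and 2 members were called for the difference between ages, and 1 or 2 for the difference between models. What the scaling changes in these libraries was not tested.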

How the results depend on the processing

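The counts of members called in the knockout comparisons depended on the scaling and on single libraries. At 1 month, where 1 member was called on the deposited TPM, 2 were called after median-ratio rescaling, without mitochondrially encoded genes, with a pseudocount of 0.1 TPM and under the replicate block, and 0 with a pseudocount of 5 TPM, with no filter on low values and with the 4 libraries of that age alone. In the acute comparison 2 were called, in place of 4, after median-ratio rescaling, without mitochondrially encoded genes and with no filter. For the ages in HKO, median-ratio rescaling gave 7 called members in place of 4. For the difference between ages, 2 were called in place of 0 after median-ratio rescaling, quantile normalization, without mitochondrially encoded genes and under the replicate block. For the acute against the 1 month effect, 1 was called in place of 0 after median-ratio rescaling and under the block, 2 without mitochondrially encoded genes and 3 after quantile normalization.

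With each library left out, on the deposited or the rescaled TPM, the called members ranged from 1 to 5 at P10, 0 to 2 at 1 month, 1 to 6 in the acute comparison, 3 to 8 for the ages in HKO, 4 to 7 for the ages in controls, 0 to 2 for the difference between ages and 0 to 2 for the acute against the 1 month effect. On the deposited TPM the acute count was 6 without GFP replicate 1 and 2 without GFP replicate 3, and that at 1 month was 2 without HKO replicate 2 and 0 without each of the other 3 libraries. Transcript usage gave 0 called members at either age and 2 in the acute comparison under each alternative run.

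Relative log2 fold changes that turned in sign are as follows. After quantile normalization they were 0.10 for Trf at P10; 0.46 for Ttr, 0.18 for Trf, 0.55 for Gc and 0.18 for Ambp at 1 month; -0.56 for Alb, 0.10 for Ttr, 0.022 for Trf and 0.076 for Itih2 in the acute comparison; and -0.040 for Ttr between the ages in HKO. Without mitochondrially encoded genes they were 0.0059 for Trf at 1 month and 0.0028 for Ttr in the acute comparison, where median-ratio rescaling gave 0.0033. A minimum of 5 TPM gave 0.00074 for Trf at 1 month. A pseudocount of 5 TPM gave -0.14 for Alb in the acute comparison and -0.012 for Ttr between the ages in HKO. With no filter the values were -0.35 for Alb and -0.031 for Rbp4 in the acute comparison and -0.37 for Ttr between the ages in HKO. With 1 library left out, Ahsg ranged from -0.081 to 0.15, Trf from -0.18 to 0.089 and Itih2 from -0.017 to 0.51 at 1 month, and Alb from -0.13 to 0.15 in the acute comparison. The cause was not tested.

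The share of library TPM held by the 10 genes became 14.88% in HKO and 21.37% in control libraries at P10, 12.31% in HKO and 10.99% in control libraries at 1 month, and 6.226% in acHKO and 6.135% in GFP libraries without mitochondrially encoded genes. At 1 month and in the acute groups this turned the order of the group means. Without Alb it was 5.484% in HKO and 6.843% in control libraries at P10, 2.436% in HKO and 2.777% in control libraries at 1 month, and 1.427% in acHKO and 2.102% in GFP libraries.

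Samples with the same replicate number shared only a number. The labels name no shared source, and their deviations correlated across genes at 0.097 at P10, 0.289 at 1 month, and 0.030, 0.336 and 0.291 in the acute comparison, where the first acHKO library correlated best with GFP replicate 3. The replicate block gave 5 called members at P10, 4 in the acute comparison, 6 for the ages in HKO and 8 for those in controls. Depth is unknown from TPM, so no counting error can be given, and with 2 libraries a group at P10 and 1 month a member that was not called may still have changed.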
